A study of Mus musculus with 43 samples.

Results

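Long-term dietary restriction (DR) was compared with ad libitum (AL) feeding in white adipose tissue (WAT) of wild-type (WT) mice. The comparison covers the genes that had a usable estimate in both groups and a level of at least 1 FPKM (mapped fragments scaled to transcript length and to the number of fragments of the library) in either of them. Of 42349 entries in the deposited table, 15140 met this rule. A ratio could be formed for 14925 of them, because 215 were listed at 0 in 1 of the groups.

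The whole study sequenced RNA from 43 libraries of liver, skeletal muscle, brain and WAT of female WT mice and of mice with a global deletion of Irs1 (KO, Irs1-/-), a docking protein of the insulin receptor. The WT mice carried both copies of Irs1 (Irs1+/+) and all animals ate the same standard chow. AL mice ate freely, while DR mice were stepped down from 10 weeks of age, first by 10% and then by 20%, and were held at 30% below the intake of AL mice and fed once a day in the late afternoon. All mice were sampled at 15 months of age, after 12 months of DR, and the fat was the inguinal depot per the study's methods. The labels name 2 libraries for WT AL and 2 for WT DR WAT, and 3 each for the KO AL and KO DR WAT used for comparison. The design text counts 3 for WT DR, which could not be settled from pooled values. The labels tie no library to a named animal, but the study's methods count mice in each group. The table gives 1 pooled value per gene and group with its 95% interval, so every value printed here is the authors' group value with the authors' interval in parentheses, and no spread between mice was computed.

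White adipocytes take up glucose and fatty acids after a meal and store them as triglyceride. They also build fatty acids from glucose: pyruvate enters the mitochondria, citrate leaves them, and acetyl-CoA made from that citrate is joined into palmitate, which is then elongated and desaturated. The tissue around the adipocytes holds vessels, fibroblasts, macrophages and a collagen scaffold, and its adipocytes secrete hormones such as leptin and adiponectin as well as local regulators of Wnt signalling.

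The samples carried the transcripts of white fat. Adipoq (adiponectin) ranked 19th of all entries by FPKM in WT AL and 21st in WT DR WAT, and Fabp4, the fatty acid binding protein of adipocytes, ranked 6th and 17th. In WT liver and brain of either diet Adipoq had at most 0.259 FPKM. Irs1 itself was at 2.47 FPKM in WT AL, 6.56 in WT DR, 5.37 in KO AL and 2.58 in KO DR WAT, so the groups labelled KO did not stand apart by it, and they are named by their labels wherever they are compared. The precision differed between the diets. The median SD was 32.9% of the FPKM in WT AL and 64.5% in WT DR, and the lower bound of the interval lay above 0 for 75.0% of the tested entries in WT AL but for 20.9% in WT DR. The share of the summed FPKM that came from the mitochondrial chromosome was 14.7% with AL feeding and 27.2% with DR in WT, against 18.6% and 18.2% in KO AL and KO DR.

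Elovl6, Acly, Acss2 and Pdp2 of the fatty acid synthesis list were up-regulated by DR in WT WAT. So were the storage enzyme Agpat2, the pyruvate carrier subunit Mpc1, 5 genes of fast skeletal muscle and a set of ribosomal and small nucleolar RNAs. The secreted Wnt inhibitor Sfrp5, the imprinted gene Peg10, the metallothionein Mt2, the matrix gene Thbs2 and the smooth muscle actin Acta2 were down-regulated. So were Dock8, Ehd3 and Iqgap1 of the actin and adhesion list and 7 immunoglobulin variable genes. In all, 39 entries were higher in WT DR than in WT AL WAT (0.261% of those tested) and 46 were lower (0.308%), by a two-sided Wald test on the log2 ratio whose standard error (SE) came from the authors' intervals, with Benjamini-Hochberg adjustment over all tested entries and a false discovery rate (FDR) of 10%. At an unadjusted p under 0.05 there were 230 higher (1.54%) and 302 lower (2.02%). The adjusted p of 18 of the 85 lay at 0.05 or above. The median log2 difference of all tested entries was -0.17, and differences are best read against it. Below, a single value in parentheses with an SE is the log2 difference of WT DR over WT AL unless another difference is named, and a pair of FPKM values gives WT AL first. These calls rest on a normal reference distribution. With a t distribution with 2 degrees of freedom 0 entries passed the FDR in either direction, and 18 higher and 27 lower had an unadjusted p under 0.05, all of them among the 85.

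**Figure D1:**
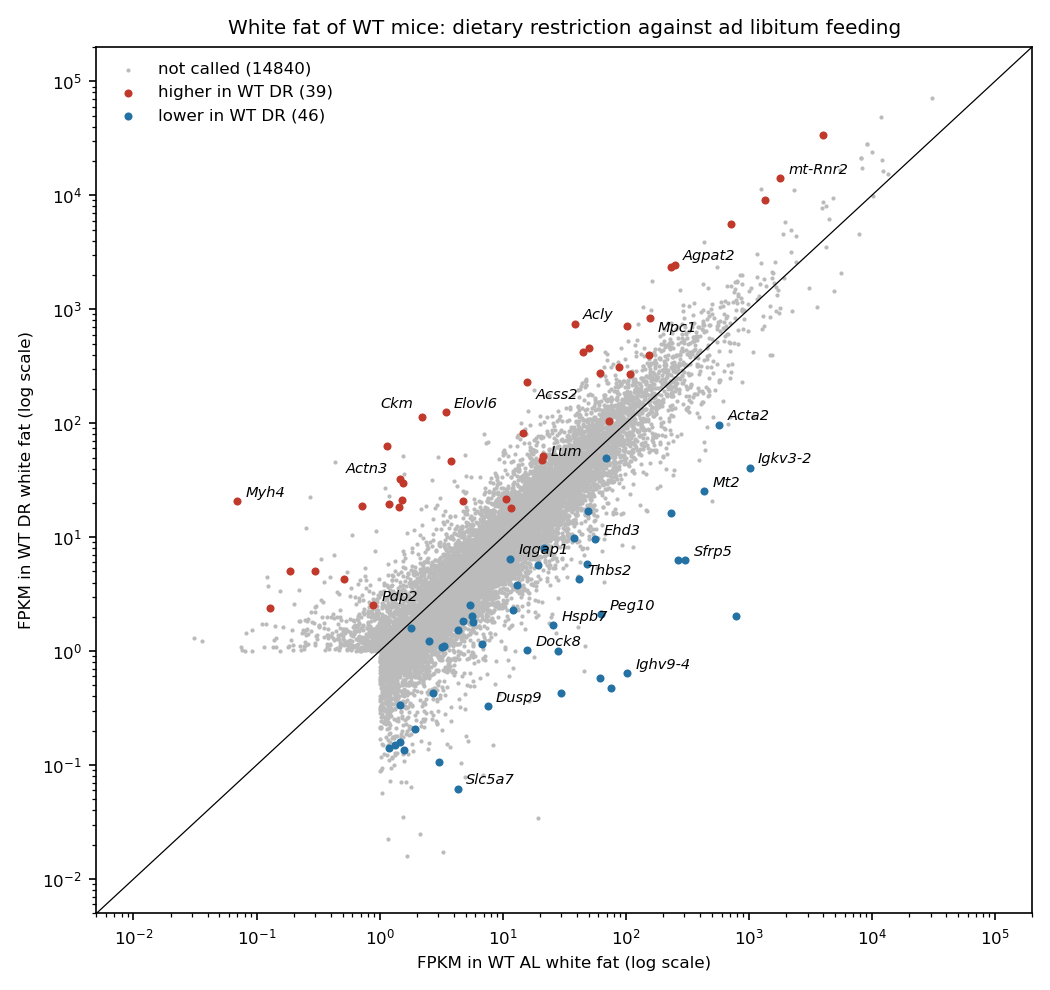
Each point is 1 tested entry, with its FPKM in WT AL WAT on the x axis and in WT DR WAT on the y axis (both log scales), and the line marks equal levels. The 39 red points were called higher and the 46 blue points lower in WT DR mice, and the called entries reach from Slc5a7 at 0.0622 to Yam1 at 34122 FPKM in WT DR.

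The size of a difference alone did not decide a call. Of 3382 entries with a log2 difference of at least 1 in either direction, 80 were called and 3302 were not. The median SE was 1.07 over the tested entries and 0.69 over the called ones. The intervals of the groups were apart for 22 of the 39 higher and 43 of the 46 lower entries. Over all 14925 tested entries they were apart for 26 higher and 148 lower ones. The calls use the same intervals, so intervals that lie apart are no independent evidence for a call. By the annotation, 53 of the 85 were single protein-coding genes, 21 higher and 32 lower, out of 11300 tested. Small or ribosomal RNAs made up 9 of the higher calls and 0 of the lower ones, out of 76 tested. Those listed at 0 in 1 group were not tested, and they lay on both sides. Snord100 was at 0 in WT AL and 101 FPKM in WT DR, and Snord42a at 73.8 and 0. Pseudogenes gave 5 in each direction of 2039, and immunoglobulin genes 7 lower of 173.

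Elovl6, the elongase that extends palmitate to stearate, stood at 3.44 (2.02 to 4.85) FPKM in WT AL and 126 (0 to 255) in WT DR WAT. Its log2 difference of 5.19 (SE 0.80) had an adjusted p of 1.19e-07 (Wald test over all entries, as for every adjusted p below). Acly makes cytosolic acetyl-CoA from citrate. Its FPKM rose from 38.4 (17.3 to 59.5) to 748 (0 to 1743), a log2 difference of 4.28 (SE 1.04) with an adjusted p of 0.0106. Acss2, which makes the same acetyl-CoA from acetate, was at 15.9 (6.89 to 24.9) and 229 (0 to 553) FPKM, with a log2 difference of 3.85 (SE 1.10) and an adjusted p of 0.0860. These 3 genes were lower in WT AL, and their intervals in WT DR were wide and reached down to 0, so that they overlapped those in WT AL. Acss2 no longer passed with no filter on low FPKM, or when protein-coding entries were tested alone. Pdp2, the phosphatase that switches on pyruvate dehydrogenase, was a rare transcript with narrow intervals, at 0.886 (0.601 to 1.17) FPKM in WT AL and 2.53 (2.10 to 2.96) in WT DR. It reached 1 FPKM in WT DR only. It rose by 1.51 (SE 0.26) on the log2 scale (adjusted p 7.6e-06), and the intervals of the groups did not overlap.

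The 250 bases before the RefSeq start of these 4 genes are shown because they are the called members of the fatty acid synthesis list and rose together. Sequences are from RefSeq (GRCm38.p6), 5′ to 3′ on the strand of the gene. Capitals mark matches on either strand to the SREBP element TCACNCCAC, the E-box CACGTG, the NF-Y motif CCAAT or the GC box GGGCGG. No motif overlaps another in these stretches. Elovl6 lies on the plus strand, and its stretch is chr3:129532136-129532385. That of Acly, on the minus strand, is chr11:100528001-100528250, that of Acss2, on the plus strand, is chr2:155517793-155518042, and that of Pdp2, on the plus strand, is chr8:104591222-104591471.
Elovl6: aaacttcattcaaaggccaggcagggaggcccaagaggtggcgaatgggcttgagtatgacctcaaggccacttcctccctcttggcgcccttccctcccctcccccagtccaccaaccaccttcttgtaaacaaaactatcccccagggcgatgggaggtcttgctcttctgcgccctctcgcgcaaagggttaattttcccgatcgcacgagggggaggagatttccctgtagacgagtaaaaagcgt
Acly: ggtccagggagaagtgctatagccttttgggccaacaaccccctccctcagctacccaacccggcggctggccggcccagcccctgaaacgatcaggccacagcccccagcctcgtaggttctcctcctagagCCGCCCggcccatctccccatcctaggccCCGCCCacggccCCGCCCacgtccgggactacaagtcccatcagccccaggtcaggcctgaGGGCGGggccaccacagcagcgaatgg
Acss2: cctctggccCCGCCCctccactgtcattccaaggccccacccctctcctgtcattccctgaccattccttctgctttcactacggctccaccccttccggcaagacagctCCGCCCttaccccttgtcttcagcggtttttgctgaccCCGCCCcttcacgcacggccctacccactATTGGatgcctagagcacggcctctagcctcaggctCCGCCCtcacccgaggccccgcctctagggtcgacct
Pdp2: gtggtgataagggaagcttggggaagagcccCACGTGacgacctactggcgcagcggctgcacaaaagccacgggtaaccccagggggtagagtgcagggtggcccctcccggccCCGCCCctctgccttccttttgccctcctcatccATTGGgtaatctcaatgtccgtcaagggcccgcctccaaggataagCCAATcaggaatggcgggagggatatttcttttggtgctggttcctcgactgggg

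Over all 32851 promoter stretches of this length, 1.05% held the SREBP element, 6.02% the E-box, 33.8% the NF-Y motif and 32.7% the GC box. Among the 38 fatty acid and sterol synthesis genes with a stretch in that table, 2 held the SREBP element, 6 the E-box, 25 the NF-Y motif and 25 the GC box. Pdp2 had 1 E-box, 2 NF-Y motifs and 1 GC box, Acss2 1 NF-Y motif and 4 GC boxes, and Acly 4 GC boxes. The Elovl6 stretch held 0 matches to these letters, which says nothing on binding.

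Gene lists are described by counts and medians beside all tested entries. The lists were chosen with earlier results of these data known, so these counts and medians are description and no test. The list of fatty acid synthesis genes held 24 genes, all of them tested. Of these 4 were up-regulated (Elovl6, Acly, Acss2 and Pdp2) and 0 down-regulated. The log2 difference was above 0 for 23 of the 24, against 40.8% of all tested entries, and 8 had an unadjusted p under 0.05, all of them higher. The median of the list was 1.46 beside -0.17 over all entries. The exception in sign was Elovl1 (-1.07), an elongase of very long chains. Among the members with the highest FPKM, Fasn, the fatty acid synthase, was at 429 in WT AL and 3904 in WT DR with a log2 difference of 3.19 (SE 2.33), and Scd1, the desaturase that makes oleate, at 3943 and 7809 (0.99, SE 0.76). Neither passed the FDR. The citrate carrier Slc25a1 had a log2 difference of 2.93 (SE 1.03), malic enzyme Me1 of 2.66 (SE 0.80), and Thrsp, a protein that goes with lipogenesis, of 2.50 (SE 0.91), with adjusted p values of 0.420, 0.146 and 0.523. The summed FPKM of the 24 genes was 5213 in WT mice fed AL and 16247 in those on DR, and 7979 and 13895 in the groups labelled KO.

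**Figure D2:**
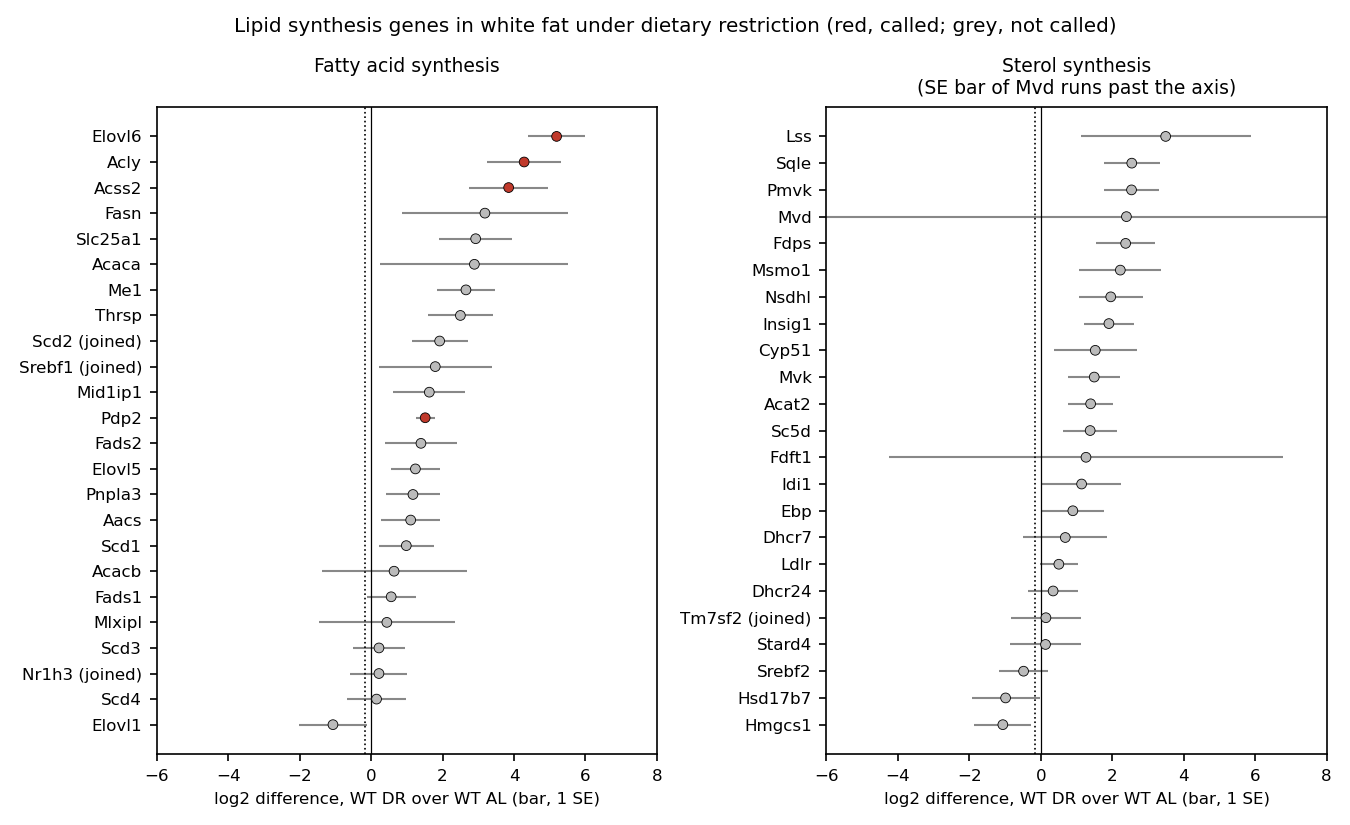
Points give the log2 difference of WT DR over WT AL WAT for tested genes of the fatty acid synthesis list (left) and the sterol synthesis list (right), with 1 SE as a bar, the dotted line at the median of all tested entries and called genes in red. On the left 23 of 24 points lie above 0 and on the right 20 do, and the 4 called genes are Elovl6, Acly, Acss2 and Pdp2.

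Sterol synthesis genes lay on the same side without a call. Of 24 tested, 20 had a log2 difference above 0, 7 had an unadjusted p under 0.05 (all higher) and the median was 1.32, while 0 passed the FDR. Sqle, which makes squalene epoxide, was at 2.19 FPKM in WT AL and 12.8 in WT DR (2.55, SE 0.78, adjusted p 0.166), and Pmvk, a kinase of the mevalonate pathway, at 16.7 and 97.1 (2.54, SE 0.78, adjusted p 0.160). Hmgcs1, a synthase early in the pathway (-1.06, SE 0.80), and the regulator Srebf2 (-0.48, SE 0.68) had values below 0. Dividing each SD by the square root of the number of libraries brought 8 fatty acid and 6 sterol synthesis genes past the FDR. The same setting brought 7 skeletal muscle genes past it as higher, and 7 macrophage and 7 stress response genes as lower. With a t distribution 0 genes of the fatty acid or sterol list passed.

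Genes of glucose uptake, glycolysis and the pentose phosphate pathway numbered 32, of which 27 had a log2 difference above 0 and 0 were called, with a median of 1.10. Pkm, the pyruvate kinase, was at 160.5 and 990.1 FPKM (2.63, SE 0.80, adjusted p 0.160) and Ldha, lactate dehydrogenase, at 423 and 1656 (1.97, SE 0.74). Pdk4, the kinase that switches off pyruvate dehydrogenase, had the lowest value of the list (-2.77, SE 2.09). Mpc1, a subunit of the carrier that brings pyruvate into mitochondria and on none of the lists, was at 156 (105 to 208) FPKM in WT AL and 846 (353 to 1339) in WT DR. It was up-regulated by 2.44 (SE 0.48) on the log2 scale with an adjusted p of 0.000232, and its intervals did not overlap.

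Of the genes of triglyceride synthesis and storage, 1 of 21 tested passed. Agpat2, the acyltransferase that adds the second fatty acid to the glycerol backbone, was at 251 (135 to 366) FPKM in WT AL and 2461 (465 to 4457) in WT DR. It rose by 3.30 (SE 0.67, adjusted p 0.000440), again with intervals apart. The median of this list was 0.35, and 14 of its 21 members had a value above 0. Cd36, a fatty acid transporter, and Aqp7, the glycerol channel, were the members with an unadjusted p under 0.05 on the lower side, at log2 differences of -1.33 (SE 0.64) and -1.21 (SE 0.57). The lipolysis list had a median of 0.15 over 12 genes, fatty acid oxidation 0.02 over 22 and the tricarboxylic acid cycle 0.15 over 18, and 0 of their members were called. Pnpla2, the first lipase of fat breakdown, stood at 2428 and 2593 FPKM, and the hormone-sensitive lipase Lipe at 661 and 869.6. The adrenergic receptor Adrb3 had the largest value of the lipolysis list, 70.5 and 407 FPKM (2.53, SE 0.89, adjusted p 0.420).

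Transcripts of the respiratory chain had mostly positive log2 differences without a call. The 13 mitochondrially encoded protein genes fell in 10 entries, all 10 with a log2 difference above 0 and a median of 1.48. The entry that joins mt-Atp6, mt-Atp8 and mt-Co3 was at 30749 FPKM in WT AL and 70708 in WT DR (1.20, SE 2.17). Among 36 nuclear genes of the chain 34 had a value above 0, with a median of 0.73, and Chchd10 had the largest, 2.22 (SE 0.75). Cytosolic ribosomal protein genes had a median of 0.18 over 69 genes, 47 of them above 0 and 0 called. The mitochondrial ribosomal RNAs were called: mt-Rnr2 was at 1803 (665 to 2941) FPKM in WT AL and 14210.5 (7216 to 21205) in WT DR, and mt-Rnr1 at 1362 (701 to 2024) and 9116 (4072 to 14161). They rose by 2.98 (SE 0.58) and 2.74 (SE 0.53) on the log2 scale, with an adjusted p of 0.000149 for both. In WT brain mt-Rnr1 rose as well, by 3.49 (SE 0.73, adjusted p 0.00129), and mt-Rnr2 had 2.81 (SE 0.97) without a call. In the same order their values were -1.19 and -0.80 in skeletal muscle, and 0.23 and -0.41 in liver. The libraries were made from poly A-selected RNA, and its part in the levels of ribosomal and small nucleolar RNAs was not tested.

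Adipocyte identity genes and hormones did not pass. Of 15 adipocyte identity genes 11 had a log2 difference above 0, with a median of 0.40. Adipoq was at 4274 (0 to 8819.9) FPKM in WT AL and 7999 (0 to 17452) in WT DR, a difference of 0.90 (SE 1.15) that its SE exceeded. The leptin gene Lep, whose level goes with fat mass, was at 616 (178 to 1055) and 158 (1.62 to 314) FPKM. Its log2 difference of -1.96 (SE 0.88) had an unadjusted p of 0.0256 and did not pass the FDR. Hp (-1.28, SE 0.43) and Adm (-2.47, SE 0.95) were also among the adipokines with an unadjusted p under 0.05. The median of the 15 tested adipokines was -0.57. In the brown and beige fat list 10 of 17 genes were expressed enough to be tested and 0 were called. Of the 10, 5 had a value above 0 and 5 below, down to -0.95, and the median was 0.30. Ucp1, the uncoupling protein of thermogenic fat, was at 3.13 and 11.8 FPKM (1.92, SE 0.82), Cidea was at 11.5 and 62.5 (2.44, SE 0.85), and Elovl3, an elongase of brown and beige fat, at 0.123 and 4.52 (5.20, SE 1.64, adjusted p 0.198). These 3 were the only tested members of the list with an unadjusted p under 0.05, so they do not stand for the list. Elovl3 reached 1 FPKM in WT DR only.

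Insulin and IGF signalling genes centred on 0. Of 33 tested, 16 had a value above 0, with a median of -0.01, and none was called, while 2 had an unadjusted p under 0.05, Irs1 on the higher side (1.41, SE 0.56) and Igfbp3 on the lower (-1.59, SE 0.75). Igf1 was at 113 FPKM in WT AL and 273 in WT DR (1.27, SE 1.15). Among 19 circadian clock genes 14 had a value above 0 and 0 were called. Dbp, an output gene of the clock, was at 14.1 and 101 FPKM (2.83, SE 1.48) and the core activator Arntl at 2.75 and 0.770 (-1.84, SE 1.23). DR mice were fed at a set hour, and the hour of tissue sampling was not given in the sources used here, so diet and clock phase cannot be told apart.

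**Figure D3:**
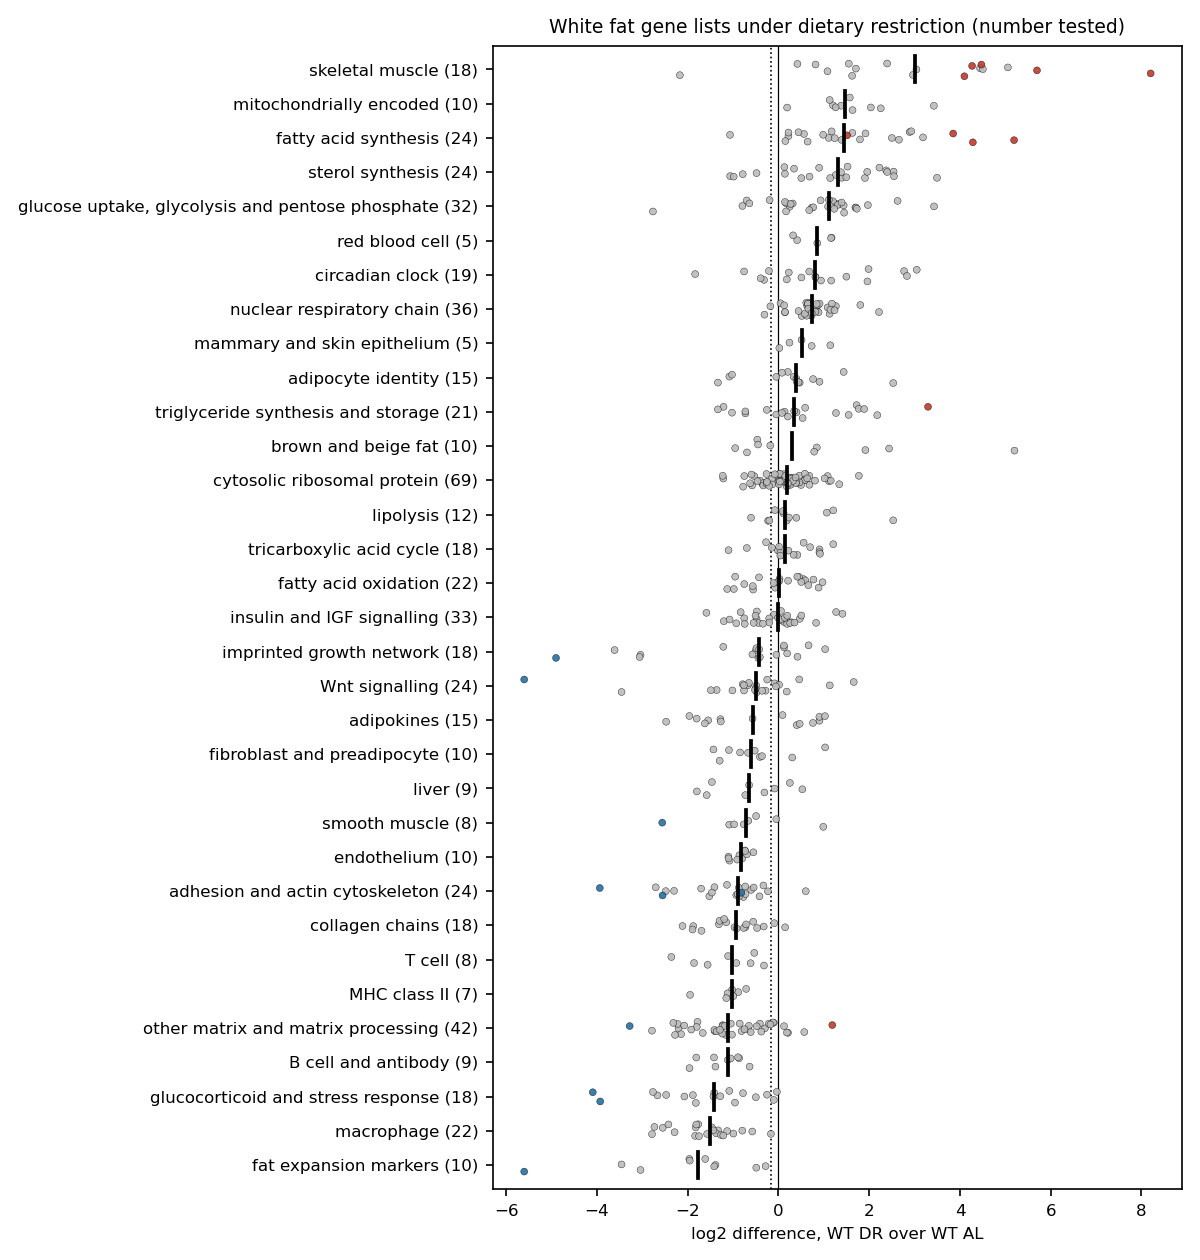
Each row is 1 gene list, with the number of its tested entries in parentheses, 1 point for each entry at its log2 difference of WT DR over WT AL WAT, and a black bar at the median of the list. Red and blue points were called higher and lower, the dotted line is the median of all tested entries (-0.17), and the list medians run from -1.78 for fat expansion markers to 3.00 for skeletal muscle genes.

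Sfrp5 is a secreted inhibitor of Wnt signalling made by adipocytes. Among called genes with at least 1 FPKM in both groups, it had the largest fall outside the immunoglobulin genes and pseudogenes. It stood at 304 (131 to 477) FPKM in WT AL and 6.26 (0 to 13.1) in WT DR WAT, and fell by 5.60 (SE 0.88) on the log2 scale with an adjusted p of 2.47e-07. It belongs to a list of 11 genes whose expression goes with fat mass gain, of which 10 were tested. All 10 had a value below 0, 5 of them with an unadjusted p under 0.05, but Sfrp5 alone was called. The entry lies on the minus strand at chr19:42197971-42202252 (GRCm38). Mest, an imprinted gene that marks expanding fat, was at 391 FPKM in WT AL and 47.6 in WT DR (-3.04, SE 1.06, adjusted p 0.420) and the Wnt target Wisp2 at 93.5 and 8.52 (-3.46, SE 1.42, adjusted p 0.828). In the wider list of 24 tested Wnt signalling genes the median was -0.50 and Sfrp5 was again the only call. Its relatives Sfrp1, Sfrp2 and Sfrp4 had values of -0.49 (SE 0.92), -0.28 (SE 1.08) and -0.65 (SE 0.87).

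Peg10, a paternally expressed imprinted gene derived from a retrotransposon, was at 63.0 (24.5 to 101) FPKM in WT AL and 2.11 (0 to 4.63) in WT DR. It fell by 4.90 (SE 0.97, adjusted p 0.000222), with intervals apart. Its entry spans chr6:4747306-4760517 (GRCm38). The rest of the imprinted growth network was mixed: 18 genes were tested, 6 had a value above 0, the median was -0.43, and Peg10 was the single call. Peg3 was at 63.6 and 7.63 FPKM (-3.06, SE 1.18, adjusted p 0.665), while Igf2 (0.19, SE 0.93) and Gnas (0.12, SE 1.00) had differences smaller than their SE.

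Genes of the glucocorticoid and stress response gave 2 calls, both lower. Mt2, a metal-binding metallothionein, was at 431 (262 to 599.8) FPKM in WT AL and 25.3 (0 to 53.6) in WT DR and fell by 4.09 (SE 0.86, adjusted p 0.000730). The small heat shock protein gene Hspb7 was at 25.7 (16.5 to 34.9) and 1.69 (0 to 4.14) FPKM and fell by 3.93 (SE 1.08, adjusted p 0.0568). In this list 0 of 18 genes had a value above 0, 9 had an unadjusted p under 0.05, and the median was -1.42. With centring on the median of all entries, 2 of the 18 moved above 0. Mt1, the neighbour of Mt2 on chromosome 8, was at 434 and 68.5 FPKM (-2.67, SE 0.89, adjusted p 0.337). Klf9 (-0.03, SE 0.74) and the glucocorticoid receptor Nr3c1 (-0.10, SE 1.22) had values near 0.

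The actin and adhesion list, also chosen with earlier results known, gave 3 lower calls of 24 tested. Dock8, which activates small GTPases and is best known from immune cells, was at 15.8 (9.51 to 22.0) FPKM in WT AL and 1.03 (0.299 to 1.76) in WT DR and fell by 3.94 (SE 0.59, adjusted p 2.63e-08). Ehd3, a regulator of endosomal recycling, was at 56.2 (32.2 to 80.2) and 9.57 (0.950 to 18.2) FPKM and fell by 2.55 (SE 0.72, adjusted p 0.0757). Iqgap1, a scaffold that links the cytoskeleton to signalling, moved least but with narrow intervals, 11.4 (9.78 to 13.1) and 6.49 (6.07 to 6.91) FPKM, and fell by 0.82 (SE 0.11, adjusted p 1.82e-09). Ehd3 no longer passed with centring on the median of all entries or with no filter on low FPKM. In the list 23 of 24 genes had a value below 0, with a median of -0.89, and 6 had an unadjusted p under 0.05.

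**Figure D4:**
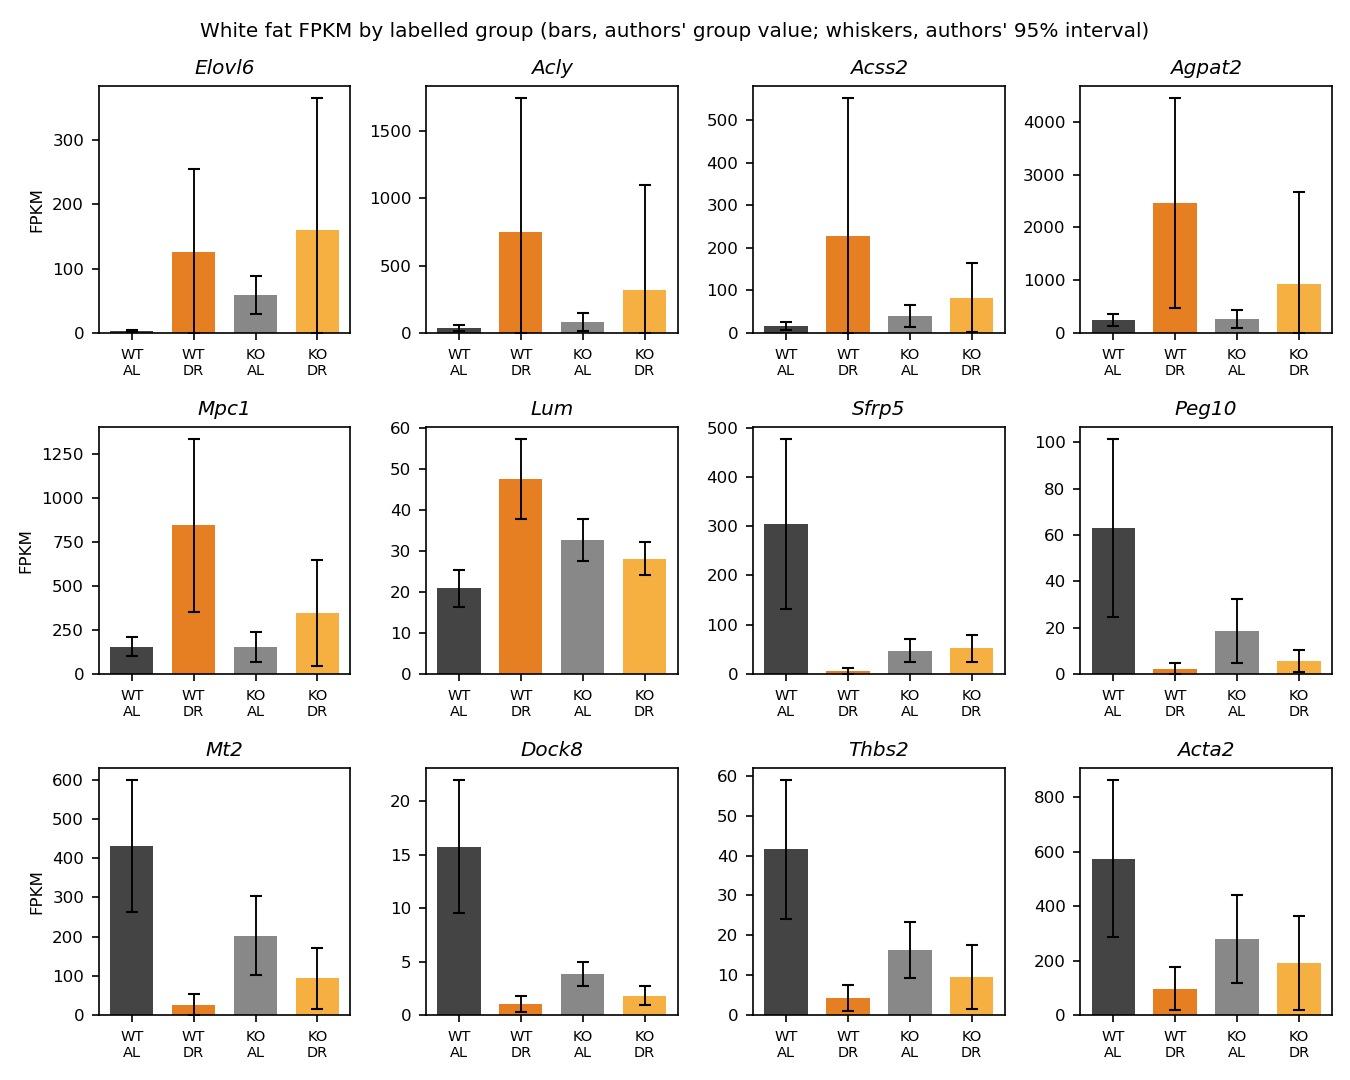
Bars give the authors' FPKM in the 4 WAT groups (WT and KO, each AL and DR) for 12 called genes, and whiskers the authors' 95% interval, on linear axes that start at 0. The top row and Mpc1 and Lum were called higher, the other 6 lower, in WT DR than in WT AL WAT, and Sfrp5 is at 304 and 6.26 FPKM in the WT groups.

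The matrix gave 1 call in each direction. Thbs2, a matricellular protein that binds collagen and growth factors, was at 41.6 (24.2 to 59.0) FPKM in WT AL and 4.29 (1.13 to 7.46) in WT DR and fell by 3.28 (SE 0.61, adjusted p 6.22e-05). Lum, the collagen-binding proteoglycan lumican, was at 20.9 (16.4 to 25.4) and 47.7 (37.9 to 57.5) FPKM and rose by 1.19 (SE 0.21, adjusted p 2.7e-05). The remaining matrix and matrix-processing genes lay mostly below 0: 5 of 42 had a value above it, the median was -1.10, and 9 had an unadjusted p under 0.05 on the lower side. Sparc was at 1495 and 395 FPKM (-1.92, SE 0.95) and Prelp at 677 and 98.0 (-2.79, SE 0.97, adjusted p 0.408). Of 18 collagen chains 1 had a value above 0 and 0 were called, with a median of -0.95 and a single unadjusted p under 0.05, that of Col5a2 (-1.89, SE 0.65).

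Markers of the other cells of the tissue, like the matrix genes, had mostly negative log2 differences, and their part in the values of the matrix genes was not tested. Of 22 macrophage genes 0 had a value above 0, 9 had an unadjusted p under 0.05 and 0 were called, with a median of -1.52, and their summed FPKM was 1670 with AL feeding and 568 with DR in WT, against 844 and 759 in KO AL and KO DR. C1qa, a complement gene of tissue macrophages, was at 189.9 and 68.7 FPKM (-1.47, SE 0.74), and Cd68 at 50.0 and 10.2 (-2.29, SE 0.87, adjusted p 0.634). The 10 endothelial markers, the 9 B cell and antibody genes, the 8 T cell genes and the 7 genes of MHC class II all had values below 0, with medians of -0.83, -1.11, -1.02 and -1.02, and 0 were called. No marker of these lists was listed at 0 in either WT group. Fibroblast and preadipocyte markers had a median of -0.60 with 2 of 10 above 0. In bulk tissue fewer cells of a type and less RNA per cell cannot be told apart.

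Smooth muscle gave 1 call. Acta2, the smooth muscle actin of vessel walls and myofibroblasts, was at 575 (285 to 864) FPKM in WT AL and 97.4 (16.8 to 178) in WT DR and fell by 2.56 (SE 0.70, adjusted p 0.0533). When differences were centred on the median of all entries, Acta2 no longer passed. The other 7 genes were not called. In the list 7 of 8 genes had a value below 0, with a median of -0.71. Myh11, the smooth muscle myosin, was at 16.0 and 15.5 FPKM (-0.05, SE 0.60). Notch3, a receptor of vessel wall cells, fell by 1.10 (SE 0.23, adjusted p 0.000690), from 5.47 (4.25 to 6.69) to 2.56 (1.98 to 3.13) FPKM.

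Immunoglobulin variable genes gave 7 lower calls and 0 higher ones among 162 tested: Ighv9-4, Ighv5-6, Igkv17-121, Igkv4-50, Igkv12-89, Igkv8-28 and Igkv3-2. Igkv3-2, the most abundant of them, was at 1015 (399 to 1631) FPKM in WT AL and 40.8 (0 to 86.3) in WT DR and fell by 4.64 (SE 0.91, adjusted p 0.000222). Ighv9-4 was at 103 (43.5 to 163) and 0.645 (0 to 1.85) FPKM (adjusted p 0.000149), so it reached 1 FPKM in WT AL only. The median of the 162 was -1.44, 41 of them had a value above 0, and their summed FPKM was 5184 with AL feeding and 1966 with DR in WT, and 4516 and 3797 in the groups labelled KO. Antibody-making cells differ from animal to animal in the segments they use, and similar segments share reads, so the division of reads between them is uncertain. The constant gene Igkc was at 5573 and 2082 FPKM and did not pass (-1.42, SE 1.08).

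The skeletal muscle list had the highest median, 3.00, with 5 of 18 tested genes called higher (Myh4, Ckm, Actn3, Tnni2 and Mybpc2) and 17 above 0. Of these 5, Tnni2 and Mybpc2 no longer passed with no filter on low FPKM, and the intervals of all but Myh4 overlapped between the diets. Myh4 and Mybpc2 reached 1 FPKM in WT DR only. Myh4, a fast myosin, was at 0.0699 (0 to 0.169) FPKM in WT AL and 20.6 (3.28 to 37.9) in WT DR (8.20, SE 1.19, adjusted p 8.8e-09), and Ckm, the muscle creatine kinase, at 2.20 (0.581 to 3.83) and 114 (1.31 to 227) (5.70, SE 0.89, adjusted p 1.69e-07). In WT DR skeletal muscle Ckm had 31263 FPKM and Myh4 9542. The summed FPKM of the list was 563 with AL feeding and 584 with DR in WT, and 1689 and 970 in the groups labelled KO, and that of WT DR WAT was 0.222% of the sum in WT DR skeletal muscle. In the WT AL sum 507 came from Acta1, the skeletal muscle actin, which was at 112 in WT DR (-2.17, SE 3.96). WT AL was thus the lowest of the 4 WAT groups in Ckm and Myh4, with 148 and 81.0 FPKM of Ckm in KO AL and KO DR. No gene of the list was listed at 0 in any of the 4 groups, and the part of muscle tissue taken along with the fat was not tested. The liver list had 0 calls and a median of -0.65, the red blood cell list 0 calls and 0.86 over 5 genes, and 5 of 16 mammary and skin epithelium genes were high enough to test, again with 0 calls.

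Other protein-coding calls were spread over several functions. On the higher side Fn3k, a kinase that removes sugars from glycated proteins, was at 1.53 (0 to 3.27) FPKM in WT AL and 21.2 (0 to 42.7) in WT DR (3.80, SE 1.10, adjusted p 0.0976). Parm1 was at 1.43 (0.737 to 2.13) and 18.5 (0 to 40.6) FPKM (3.69, SE 0.93, adjusted p 0.0186). The ferric reductase Cybrd1 rose by 3.08 (SE 0.72), from 0.510 (0.152 to 0.868) to 4.30 (1.26 to 7.35) FPKM, so it reached 1 FPKM in WT DR only. On the lower side Magi1, a scaffold of cell junctions, was at 6.75 (4.11 to 9.39) and 1.16 (0.188 to 2.13) FPKM and fell by 2.54 (SE 0.67, adjusted p 0.0334). Rbp7, a retinoid-binding protein found in fat, was at 37.8 (24.1 to 51.6) and 9.82 (6.21 to 13.4) FPKM and fell by 1.94 (SE 0.37, adjusted p 0.000126). Spry4, Dusp9 and Hbegf were also called lower, with each fall given by its size on the log2 scale. Spry4, an inhibitor of receptor tyrosine kinase signals, fell by 1.67 (SE 0.29). The MAP kinase phosphatase gene Dusp9 fell by 4.51 (SE 0.66), from 7.55 to 0.332 FPKM, so it too reached 1 FPKM in WT AL only. Hbegf, a ligand of the EGF receptor, fell by 3.16 (SE 0.45), from 1.34 to 0.150 FPKM, so it reached 1 FPKM in WT AL only. Slc5a7, the choline transporter, was at 4.32 (2.68 to 5.96) FPKM in WT AL and 0.0622 (0 to 0.171) in WT DR, again with 1 FPKM reached in WT AL only. The cytochromes Cyp3a41a and Cyp3a41b were lower too, by 3.20 (SE 0.40) and 3.52 (SE 0.75). Cyp3a41a was at 1.47 and 0.160 FPKM and Cyp3a41b at 1.57 and 0.137, so both reached 1 FPKM in WT AL only. They are near-identical copies between which reads are divided with uncertainty.

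Several large differences belong to entries whose reads can come from elsewhere. Rpl19-ps4, a pseudogene of a ribosomal protein gene, was at 781 (0 to 2208) FPKM in WT AL and 2.02 (0 to 6.90) in WT DR, and Gm11295, another pseudogene, at 1.15 (0 to 2.67) and 63.4 (5.63 to 121). The entry that joins Snhg12 with Snora44, Snora61 and Snord99 was at 44.9 (11.3 to 78.4) and 419 (382 to 455) FPKM. Yam1 was at 4014 (867 to 7162) and 34122 (7219 to 61026) FPKM, the highest level of any called entry. Some calls rest on very narrow intervals: Gm20721, Hist1h4i, Gm23935 and mt-Tp were the only tested entries with an SE under 0.1. Hist1h4i was at 1.79 (1.75 to 1.83) and 1.61 (1.60 to 1.62) FPKM, a log2 difference of -0.15 that turned to 0.016 when differences were centred on the median of all entries. Of the entries listed at 0 in 1 group, 145 were at 0 in WT DR and 70 in WT AL, and 131 of the 215 were small or ribosomal RNAs, on both sides. The highest were the joining segments Ighj1, Ighj4 and Ighj3, at 2006, 1049 and 566 FPKM in WT AL and listed at 0 in WT DR, and Ighj2, mt-Tt and mt-Tn, at 699, 569.9 and 202 in WT DR and listed at 0 in WT AL.

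Whether the effect of DR in WT WAT differs from that in the groups labelled KO was asked of each entry by the difference between the log2 ratios, which share no group. In KO WAT 110 of 15552 entries were called (0.707%), 45 higher and 65 lower in KO DR than in KO AL. The difference itself passed the FDR for 18 of 14506 entries (0.124%). Among the 85 entries called in WT, 80 could be tested and 10 passed. In KO WAT 10 of the 85 were called as well, 8 in the same direction (among them Iqgap1, Dact2 and Spry4) and 2 in the opposite one, Gm20721 and Hist1h4i. Of the 37 higher entries with a value in KO, 29 were also above 0 there. Their median in KO was 1.14, beside 3.20 in WT and 0.01 over all entries tested in KO. Of the 43 lower ones 31 were below 0, with a median of -0.65 beside -2.67. Entries were chosen by the WT difference, so the WT medians are large by construction. That WT difference is also part of the difference tested, so the share of the 80 that passed is raised by construction too.

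Sfrp5 fell in WT but was at 47.7 (23.5 to 71.8) FPKM in KO AL and 52.1 (24.5 to 79.7) in KO DR, a log2 difference of 0.13 (SE 0.53). The difference between the genotypes was -5.73 (SE 1.03) on the log2 scale, with an adjusted p of 5.44e-05. Dock8 was at 3.81 (2.69 to 4.92) in KO AL and 1.82 (0.931 to 2.71) in KO DR, with a difference between the genotypes of -2.87 (SE 0.72, adjusted p 0.0519). Lum was at 32.7 (27.6 to 37.8) and 28.2 (24.1 to 32.3) FPKM in the KO groups, a difference of 1.40 (SE 0.26, adjusted p 0.000174). For these 3 genes the diet difference in WT exceeded that in KO. Myh4 and Ckm had differences between the genotypes of 9.07 (SE 1.64) and 6.57 (SE 1.36, adjusted p 6.45e-05 and 0.00167), with Ckm at 148 FPKM in KO AL and Myh4 at 55.0. Igkv17-121 had one of -7.93 (SE 1.76, adjusted p 0.00683). For Elovl6, at 58.9 (28.9 to 88.8) FPKM in KO AL and 160.4 (0 to 365) in KO DR, the difference of 3.75 (SE 1.28) did not pass (adjusted p 0.821), nor did that of Acly (2.35, SE 2.13), Agpat2 (1.45, SE 1.56), Peg10 (-3.17, SE 1.26) or Mt2 (-2.98, SE 1.11). No detection limit was computed, and with SEs of this size a difference that did not pass does not show that the genotypes responded alike.

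**Figure D5:**
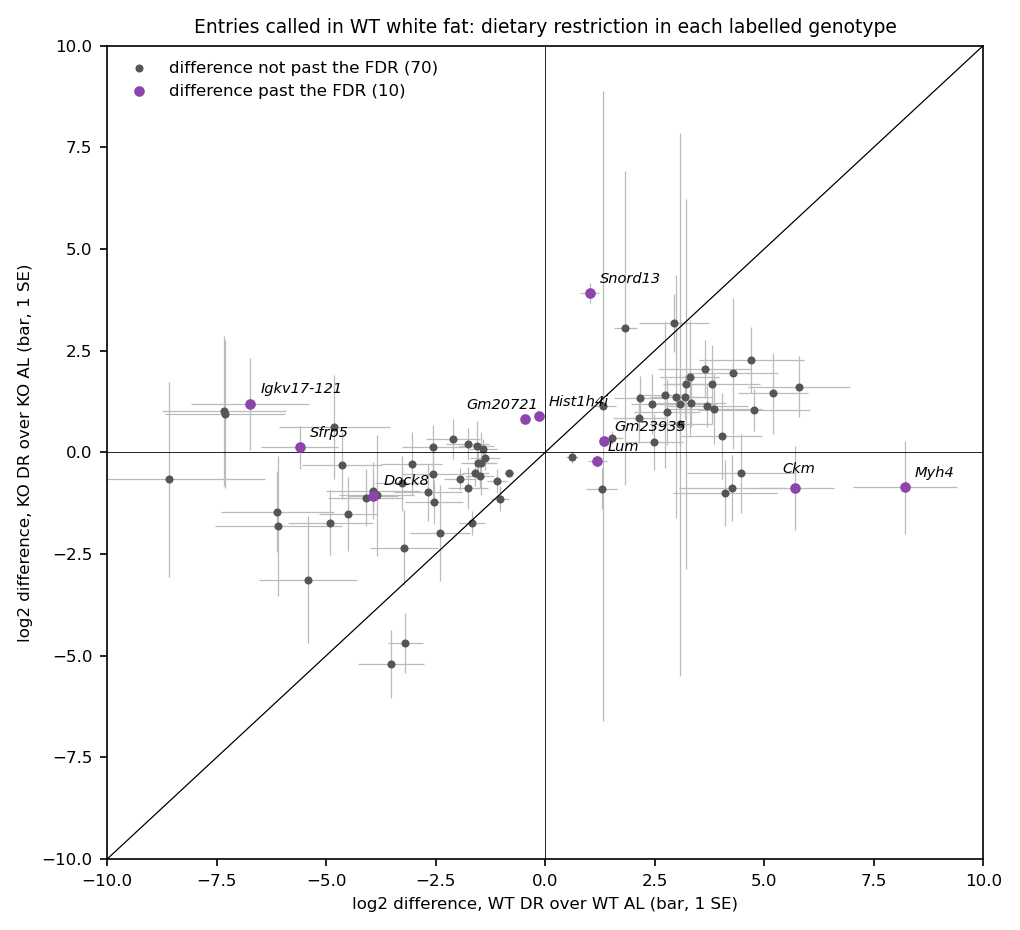
Each point is 1 of the 80 entries called in WT WAT with a value in both genotypes, with its log2 difference of WT DR over WT AL on the x axis, that of KO DR over KO AL on the y axis, 1 SE as bars, and the diagonal at equal differences. The 10 purple points are the entries whose difference between the genotypes passed the FDR, among them Sfrp5 at -5.60 in WT and 0.13 in KO.

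Against the other tissues of WT mice, the log2 difference in WAT departed from that in skeletal muscle for 52 of 13026 entries (0.399%), from that in liver for 8 of 12377 (0.0646%) and from that in brain for 7 of 12721 (0.055%). Of the 85 called in WAT, 62, 53 and 55 could be tested in these comparisons, and 14, 7 and 7 passed. The WAT difference that chose these entries is part of each test, so these shares are raised by construction. Elovl6 differed between WAT and liver by 5.47 (SE 0.97) and between WAT and brain by 5.42 (SE 0.95). In skeletal muscle it was itself up-regulated, by 2.71, and the difference to WAT of 2.48 did not pass. The log2 difference of Mpc1 was higher in WAT than in skeletal muscle by 2.54 (SE 0.66) and that of Pdp2, which was itself up-regulated in skeletal muscle by 0.41, by 1.10 (SE 0.28), and both passed. The log2 difference of Mt2 in WAT less that in brain was -4.89 (SE 1.01). Sfrp5, Thbs2, Dock8 and Iqgap1 were down-regulated in skeletal muscle as well, at log2 differences of -4.01, -2.50, -2.25 and -0.88. In skeletal muscle of WT mice Adipoq was at 321 FPKM with AL feeding and 62.9 with DR, and the part of fat in the muscle samples was not tested.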

How the data were processed

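RNA of female mouse tissues was poly A-selected and sequenced on an Ion Proton. Per the study's methods, the authors trimmed reads with cutadapt 1.5 and sickle, aligned them to GRCm38 with BBmap in an iterative manner, and used Cuffdiff 2.2.1 with correction for multi-mapping reads, geometric normalisation and a dispersion per condition. The deposited table gives FPKM values per gene and group, with a 95% interval and a status, pooled over the libraries of a group. Reads shared by similar genes were divided by Cuffdiff, so paralogues, pseudogenes and immunoglobulin segments are uncertain, and overlapping genes are joined in 1 entry.

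Entries with status OK in both groups and at least 1 FPKM in either were kept, and those at 0 in a group were left out of the test. The SD of a group was taken as (upper bound less FPKM)/2, the SE of the log2 ratio followed by the delta method, with no pseudocount, and two-sided Wald p values were adjusted by Benjamini-Hochberg over all tested entries (FDR 10%). Differences between genotypes or tissues were tested likewise. The Cuffdiff intervals reflect the authors' model of spread between libraries, and the methods count these as mice. Alternatives were the SD divided by the root of the library number, a t distribution, pseudocounts, other filters, centring, leaving out joined entries or entries with an SE under 0.1, and protein-coding entries only.

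The members and lists were chosen with earlier results of these data known. The 33 lists hold 638 genes, of which 636 were found. Genes were named by this rule: the 15 largest differences per direction among calls with 1 gene name and at least 1 FPKM in both groups; every called list member; up to 4 members per list with the highest FPKM; Sfrp5, Elovl6, Lep, Adipoq, Irs1 and Ucp1; up to 5 entries per direction for each difference test; and the 3 highest entries listed at 0 in 1 group. Adm, Adrb3, Aqp7, Arntl, Cd36, Cd68, Chchd10, Col5a2, Cybrd1, Cyp3a41a, Cyp3a41b, Dact2, Dusp9, Elovl1, Elovl3, Hmgcs1, Hp, Igf2, Igfbp3, Ighv5-6, Ighv9-4, Igkv4-50, Igkv8-28, Klf9, Me1, Mpc1, Notch3, Nr3c1, Pdk4, Peg3, Sfrp1, Sfrp2, Sfrp4, Spry4, Sqle, Srebf2, mt-Atp6, mt-Atp8 and mt-Co3 were chosen after their values were seen, as were members named for a sign, a rank or an unadjusted p. Some genes are not reported here by name. Promoter stretches are from RefSeq (GRCm38.p6). Python 3.11.15, numpy 2.4.6, pandas 2.3.3, scipy 1.17.1 and matplotlib 3.10.9 were used.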

Additional observations from a re-analysis of the deposited data

Results flagged for a closer look

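Differences in the effect of DR, tested as the log2 difference in WT WAT less that in another set of groups, are given here for entries called in WT WAT that passed an FDR of 10% (Wald test, Benjamini-Hochberg adjustment), up to 5 per direction. A positive value means that the log2 ratio of DR over AL was higher in WT WAT.

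Between WT WAT and the WAT labelled KO, the skeletal muscle genes Myh4 (9.07) and Ckm (6.57) had the largest positive differences, followed by Lum (1.40) and Gm23935 (1.08). Negative differences were found for Igkv17-121 (-7.93), Sfrp5 (-5.73), Snord13 (-2.89), Dock8 (-2.87) and Gm20721 (-1.29). The summed FPKM of the skeletal muscle list was 563 in WT AL against 1689 in KO AL WAT, and its part in the values of Myh4 and Ckm was not tested.

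Between WAT and skeletal muscle of WT mice, Myh4 (8.01), Ckm (4.95), mt-Rnr1 (3.94), mt-Rnr2 (3.78) and the joined entry of Snhg12 (3.74) had positive differences. The growth factor gene Hbegf (-4.18), the pseudogene Prdx6-ps2 (-2.69), Osgin1 (-2.08), the lysosomal protease gene Lgmn (-1.46) and Gm20721 (-1.32) had negative ones.

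Between WAT and liver, n-R5-8s1 (7.51), the pseudogene Gm11295 (7.40), Elovl6 (5.47), Pdp2 (2.92) and Hist1h4i (2.81) had positive differences, and the pseudogene Rpl19-ps4 (-13.3) and Dock8 (-3.78) negative ones. Between WAT and brain, Elovl6 (5.42), the joined entry of Snhg12 (4.93), the pseudogene Gm11249 (3.99), another pseudogene entry on chromosome 1 (3.37) and the mitochondrial transfer RNA mt-Tp (2.06) had positive differences, and Slc5a7 (-6.90) and Mt2 (-4.89) negative ones. Gm20721, Hist1h4i, Gm23935 and mt-Tp rest on an SE under 0.1 in WT WAT.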

How the results depend on the processing

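No paired analysis was possible because the table holds 1 pooled value per group and no value per library, and for the same reason leaving out each library in turn was not run. Dividing each SD by the square root of the number of libraries gave 182 higher and 228 lower entries in WT WAT, 1149 in KO WAT, 164 for the difference between the genotypes, and 257, 126 and 93 for the differences to skeletal muscle, liver and brain. A t distribution gave, in the same order, 0 and 0, 4, 2, and 2, 0 and 1. A pseudocount of 0.1 gave 101 and 174, 372, 87, and 150, 82 and 54. A pseudocount of 1 gave 85 and 160, 336, 68, and 138, 49 and 31. Counting intervals that do not overlap gave 26 higher entries in WT WAT, 22 of them among the 39, 148 lower ones, 43 of them among the 46, and 196 in KO WAT. Elovl6, Acly, Acss2, Ckm, Actn3, Tnni2 and Mybpc2 were among the calls lost by it. With no filter on low FPKM, Fn3k, Ehd3, Acss2, Gm5873, Tnni2 and Mybpc2 no longer passed. FPKM of at least 5 left 4 entries for liver. Testing protein-coding entries only, chosen after seeing the data, gave 17 higher entries in WT WAT, 5 for liver and 3 for brain. Centring on the median of all entries (-0.17) gave 47 higher and 38 lower entries, ended lower calls, Ehd3, Acta2 and Prdx6-ps2 among them, and turned the sign of Hist1h4i (0.016), Myh11 (0.12), Fabp4 (0.12), Col15a1 (0.077) and Alb (0.086). Why the counts moved was not tested beyond what each setting does by construction. Of 221 named entries, 150 stayed on their side of the FDR with the t distribution and 71 were lost. The number of reads behind a value is not in the table, so the authors' interval is the only measure of precision, and that of WT DR was the widest.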
